A study of Capra hircus with 11 samples.

Results

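The 41 genes described here are cell cycle genes, taken by symbol from all 5 tables of a goat single-cell series that together list 16677 gene symbols. They comprise 18 S phase genes, from MCM2 to UNG, and 23 genes of G2 and mitosis, from MKI67 to CDC20, and the rule that takes them uses their symbols alone. All 41 were present once in each table. Of the 41 genes, 40 had a mean of at least 5 CPM over the 5 tables, and CDC6 was below it. CPM is the number of unique molecular identifiers (UMIs, the counted RNA molecules) of a gene scaled to a table total of 1000000 UMIs, without ribosomal protein genes.

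The series followed goat (Capra hircus) ear fibroblasts through induction towards mammary epithelial cells by an induction medium called BFRTV. BFRTV0d are the uninduced fibroblasts, BFRTV4d and BFRTV8d are the cells after 4 and 8 days in that medium, CiMECs are day 8 cells that were kept in culture with mammary epithelial cell medium over later passages, and GMECs are naturally derived mammary epithelial cells. The labels give no age, sex, breed or genetic alteration for any group, and induction and passaging were done on plates coated with Matrigel. The labels name 11 samples, but cells carried no sample name and each group was 1 pooled table, so the groups had no replicates and no test was possible. Intervals in parentheses are exact 95% intervals of the counting error alone, and each difference is one between tables, not shown to be one between conditions.

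In the division cycle, DNA is copied in S phase and the copies are separated in mitosis. The MCM helicase is loaded on origins before S phase and then unwinds DNA, the enzymes of nucleotide synthesis supply the building blocks, and polymerases with the PCNA clamp extend the new strands. Most S phase genes are transcribed from late G1 under E2F factors, whereas cyclin B, the mitotic kinases and the spindle genes are transcribed later, in G2, under MYBL2 and FOXM1 with the MuvB complex.

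The BFRTV0d table held 10670 barcodes, BFRTV4d 10203, BFRTV8d 10152, CiMECs 5188 and GMECs 5641, with 72177482 to 117500853 UMIs per table and medians of 9089 to 12535 UMIs per barcode when ribosomal protein genes are left out. With them, CiMECs held 97203521 UMIs and GMECs 111001606 UMIs, with medians of 17232 and 19424 UMIs per barcode. Pairs of tables shared 37 to 147 barcode sequences. Summed collagen markers stood at 11850 CPM in BFRTV0d, 2636 CPM in BFRTV4d and 302.7 CPM in BFRTV8d, with 14.1 CPM in CiMECs against 0.610 CPM in GMECs. Summed keratin markers stood at 1672 CPM in BFRTV0d, 6303 CPM in BFRTV4d and 12665 CPM in BFRTV8d, with 18953 CPM in CiMECs against 28950.2 CPM in GMECs. Summed endothelial markers were at most 3.01 CPM and immune markers at most 8.33 CPM, with PTPRC, CDH5 and CLDN5 listed in no table. Summed pericyte markers stood at 166 CPM in BFRTV0d, 113 CPM in BFRTV4d and 72.8 CPM in BFRTV8d, with 19.5 CPM in CiMECs against 18.5 CPM in GMECs. They were lower on each later day, as the totals of the cell cycle genes were, and their part in those totals was not tested. The CiMECs and GMECs tables were made differently from the BFRTV tables: they list 74 ribosomal protein genes, the BFRTV tables list 0, and they keep shallower barcodes. Wherever CiMECs are set against BFRTV8d, or GMECs against BFRTV0d, the table set and the group cannot be told apart.

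Over the 8 days both groups of genes had lower totals, but not in step. The 18 S phase genes summed to 884 CPM in BFRTV0d, 423 CPM in BFRTV4d and 229 CPM in BFRTV8d. The 23 G2 and mitosis genes summed to 833 CPM in BFRTV0d, 760.4 CPM in BFRTV4d and 294 CPM in BFRTV8d. By day 4 the S phase total was therefore far below its day 0 value while the mitotic total was close to it, and the mitotic total over the S phase total was 0.942 in BFRTV0d, 1.80 in BFRTV4d and 1.29 in BFRTV8d. With TMM scaling, which sets the tables level over most genes, the mitotic total was 704 scaled CPM in BFRTV0d and 741 in BFRTV4d, so that the order of these days turned, while the S phase total was 747 in BFRTV0d and 413 in BFRTV4d. Of the S phase genes, 14 were ordered BFRTV0d above BFRTV4d above BFRTV8d, and of the G2 and mitosis genes 15. The shares of all genes in this order, or highest in BFRTV4d, were not counted. Among the other members, 9 had their highest level of the 3 days in BFRTV4d: RRM1 alone of the S phase genes, and TOP2A, CCNB1, CCNB2, BUB1B, CENPF, NUSAP1, KIF11 and HMMR. Of these, CCNB1 (31.5 CPM in BFRTV0d and 32.0 in BFRTV4d) and KIF11 (14.7 and 15.5) had overlapping counting intervals on the 2 days. So did BUB1 (8.39 and 7.98) and PLK1 (15.0 and 14.1), which are among the 15.

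**Figure D1:**
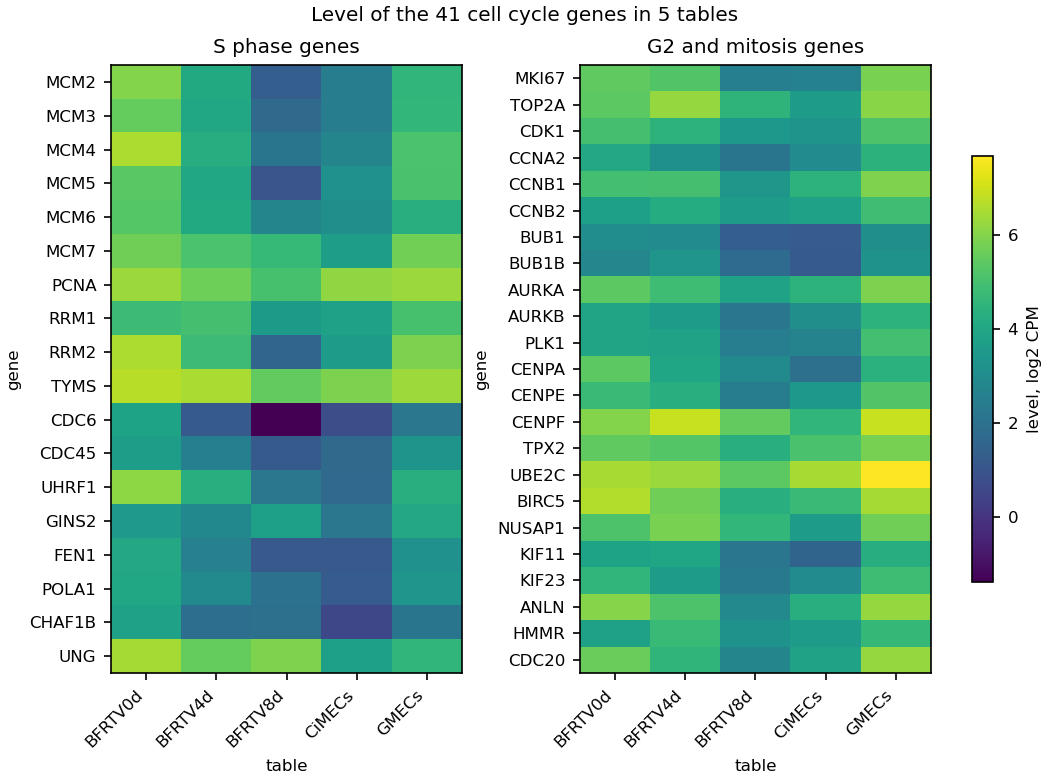
Level of each of the 41 genes (rows, S phase genes left and G2 and mitosis genes right) in the 5 tables (columns), as log2 CPM on a common colour scale. Of the S phase genes 14 darken from BFRTV0d through BFRTV4d to BFRTV8d, the others being RRM1, GINS2, CHAF1B and UNG, whereas TOP2A and CENPF are brighter in BFRTV4d than in BFRTV0d.

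In BFRTV8d against BFRTV0d the genes of the helicase and its loading had the lowest median log2 fold of the roles, -3.79, while in BFRTV4d against BFRTV0d the median was lower for the genes of the polymerases, the clamp and chromatin, -1.50 beside -1.31. MCM2, a subunit of the replicative helicase, measured 63.0 CPM in BFRTV0d, 17.3 CPM in BFRTV4d and 2.49 CPM in BFRTV8d, with 5.55 CPM in CiMECs against 23.8 CPM in GMECs. CDC6, which loads the helicase on origins, measured 14.7 CPM in BFRTV0d, 2.28 CPM in BFRTV4d and 0.387 CPM in BFRTV8d, with 1.74 CPM in CiMECs against 4.68 CPM in GMECs. It was 38.0-fold lower in BFRTV8d than in BFRTV0d (27.8 to 53.3), the largest drop among the 41 genes. GINS2, a subunit of the GINS complex that activates the helicase, went another way, with 11.2 CPM in BFRTV0d, 7.26 CPM in BFRTV4d, 13.3 CPM in BFRTV8d, and 4.58 CPM in CiMECs against 17.1 CPM in GMECs. It was 1.19-fold higher in BFRTV8d than in BFRTV0d (1.10 to 1.28) and the only S phase gene above its day 0 level on day 8. Of the 9 genes of this role (MCM2 to MCM7, CDC6, CDC45 and GINS2), 7 were at least 2-fold lower in BFRTV4d than in BFRTV0d, as were 22.5% of all genes compared, and 8 were in BFRTV8d, as were 26.1% of all genes.

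Genes of nucleotide supply and repair were mixed. RRM2, the inducible subunit of ribonucleotide reductase, measured 94.9 CPM in BFRTV0d, 28.5 CPM in BFRTV4d and 3.02 CPM in BFRTV8d, with 12.007 CPM in CiMECs against 59.1 CPM in GMECs. RRM1, the large subunit of the same enzyme, differed from its partner, with 28.2 CPM in BFRTV0d, 31.7 CPM in BFRTV4d and 11.8 CPM in BFRTV8d. RRM2 was thus 31.4-fold lower in BFRTV8d than in BFRTV0d (28.1 to 35.3), while RRM1 was 0.418 of its day 0 level. TYMS, thymidylate synthase, measured 91.0 CPM in BFRTV4d against 104 CPM in BFRTV0d. UNG, a uracil-DNA glycosylase of base excision repair, measured 87.3 CPM in BFRTV0d, 46.6 CPM in BFRTV4d and 60.7 CPM in BFRTV8d, with 13.2 CPM in CiMECs against 24.0 CPM in GMECs.

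Among the genes that act at the fork and behind it, UHRF1, which carries DNA methylation over to the new strand, measured 70.0 CPM in BFRTV0d, 20.0 CPM in BFRTV4d and 4.65 CPM in BFRTV8d, with 3.29 CPM in CiMECs against 19.5 CPM in GMECs. PCNA, the sliding clamp, differed less, with 78.1 CPM in BFRTV0d, 51.4 CPM in BFRTV4d and 32.9 CPM in BFRTV8d, and 72.2 CPM in CiMECs against 79.3 CPM in GMECs. The other genes of this role, FEN1 (flap removal), POLA1 (the primase-associated polymerase) and CHAF1B (histone deposition), were 0.134, 0.252 and 0.280 of their day 0 levels in BFRTV8d.

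The mitotic genes were closer to their day 0 level on day 4. MKI67, the Ki-67 protein that coats mitotic chromosomes, measured 44.1 CPM in BFRTV0d, 37.3 CPM in BFRTV4d and 5.78 CPM in BFRTV8d, with 6.13 CPM in CiMECs against 57.0 CPM in GMECs. TOP2A, the topoisomerase that untangles sister chromatids, peaked in the middle, with 42.0 CPM in BFRTV0d, 75.0 CPM in BFRTV4d and 22.6 CPM in BFRTV8d, and 11.9 CPM in CiMECs against 66.2 CPM in GMECs. CENPF, which binds the outer kinetochore, had the same shape, with 63.1 CPM in BFRTV0d, 119 CPM in BFRTV4d and 45.2 CPM in BFRTV8d, and 23.7 CPM in CiMECs against 121 CPM in GMECs. In BFRTV4d relative to BFRTV0d, CENPF was 1.88-fold higher (1.83 to 1.93), TOP2A 1.79-fold higher (1.72 to 1.85) and MKI67 1.18-fold lower (1.13 to 1.23). CENPA, the histone variant of the centromere, stood against CENPF, with 42.0 CPM in BFRTV0d, 15.6 CPM in BFRTV4d and 7.74 CPM in BFRTV8d, and 3.90 CPM in CiMECs against 21.2 CPM in GMECs.

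CDK1, the kinase that drives entry into mitosis, measured 32.3 CPM in BFRTV0d, 22.0 CPM in BFRTV4d and 10.9 CPM in BFRTV8d, with 9.90 CPM in CiMECs against 35.7 CPM in GMECs. Its cyclin partners differed in how far below day 0 they were. CCNA2 measured 17.0 CPM in BFRTV0d, 8.99 CPM in BFRTV4d and 4.45 CPM in BFRTV8d, with 8.01 CPM in CiMECs against 21.6 CPM in GMECs. CCNB2 measured 13.4 CPM in BFRTV0d, 18.9 CPM in BFRTV4d and 11.9 CPM in BFRTV8d, with 13.9 CPM in CiMECs against 29.8 CPM in GMECs, and its 1.12-fold lower level in BFRTV8d than in BFRTV0d (1.04 to 1.21) was the smallest difference among the mitotic genes.

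Of the mitotic kinases and checkpoint genes, all 6 (BUB1, BUB1B, AURKA, AURKB, PLK1 and BIRC5) were at least 2-fold lower in BFRTV8d than in BFRTV0d and 0 of 6 in BFRTV4d, where the shares among all genes were 26.1% in BFRTV8d and 22.5% in BFRTV4d. BIRC5, or survivin, of the chromosomal passenger complex with AURKB, measured 99.6 CPM in BFRTV0d, 51.8 CPM in BFRTV4d and 20.0 CPM in BFRTV8d, with 26.4 CPM in CiMECs against 86.9 CPM in GMECs. BUB1B, a spindle checkpoint protein, measured 7.11 CPM in BFRTV0d, 10.2 CPM in BFRTV4d and 3.44 CPM in BFRTV8d, with 2.25 CPM in CiMECs against 9.59 CPM in GMECs. Both genes of the anaphase-promoting complex were lower on day 8. CDC20, its activator, measured 49.3 CPM in BFRTV0d, 23.3 CPM in BFRTV4d and 6.77 CPM in BFRTV8d, with 14.3 CPM in CiMECs against 75.6 CPM in GMECs. UBE2C, its ubiquitin-conjugating enzyme, measured 88.3 CPM in BFRTV0d, 78.8 CPM in BFRTV4d and 42.3 CPM in BFRTV8d, with 89.3 CPM in CiMECs against 203 CPM in GMECs.

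Spindle and cytokinesis genes spanned the widest range of folds of the mitotic roles in BFRTV8d against BFRTV0d. ANLN, the scaffold of the cleavage furrow, measured 64.2 CPM in BFRTV0d, 35.5 CPM in BFRTV4d and 7.36 CPM in BFRTV8d, with 19.9 CPM in CiMECs against 76.1 CPM in GMECs, and was 8.72-fold lower in BFRTV8d than in BFRTV0d (8.09 to 9.41). HMMR, a spindle-associated hyaluronan receptor, measured 13.8 CPM in BFRTV0d, 26.1 CPM in BFRTV4d and 9.66 CPM in BFRTV8d, with 11.95 CPM in CiMECs against 25.1 CPM in GMECs. TPX2, NUSAP1, KIF11 and KIF23, of spindle assembly and the midzone, lay between them on day 8, at 0.199 to 0.691 of their day 0 levels.

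The BFRTV4d table, of cells after 4 days of induction, was first set against the BFRTV0d table. Of the S phase genes, 12 of 18 were at least 2-fold lower and 0 higher, and the median log2 fold was -1.24. Among all 9943 genes compared, 22.5% were at least 2-fold lower and 14.9% higher, and the median was -0.30. Of the G2 and mitosis genes only CENPA and CDC20 were at least 2-fold lower, 2 of 23, below the share among all genes, and the median was -0.21. Relative to all genes the S phase median was -0.94 and the mitotic median 0.092, and the mitotic value changed sign to -0.085 when genes with a low level were kept among all genes. With TMM scaling the median over all genes was higher by 0.21 and with median-of-ratios scaling by 0.24, and 3 mitotic genes then passed 2-fold higher and 1 passed 2-fold lower.

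By day 8 the mitotic genes were lower too. In BFRTV8d against BFRTV0d, 16 of 18 S phase genes were at least 2-fold lower, with a median log2 fold of -2.51, and the exceptions were GINS2 and UNG. Of the G2 and mitosis genes 18 of 23 were at least 2-fold lower, with a median of -1.57, and the exceptions were TOP2A, CCNB2, CENPF, NUSAP1 and HMMR. Among all genes 26.1% were at least 2-fold lower and 19.3% at least 2-fold higher, and no member was at least 2-fold higher. Between the later days, in BFRTV8d against BFRTV4d, 12 of 18 S phase genes and 20 of 23 mitotic genes were at least 2-fold lower, with medians of -1.39 for each group, while 7.91% of all genes were lower and 9.08% higher by that much.

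**Figure D2:**
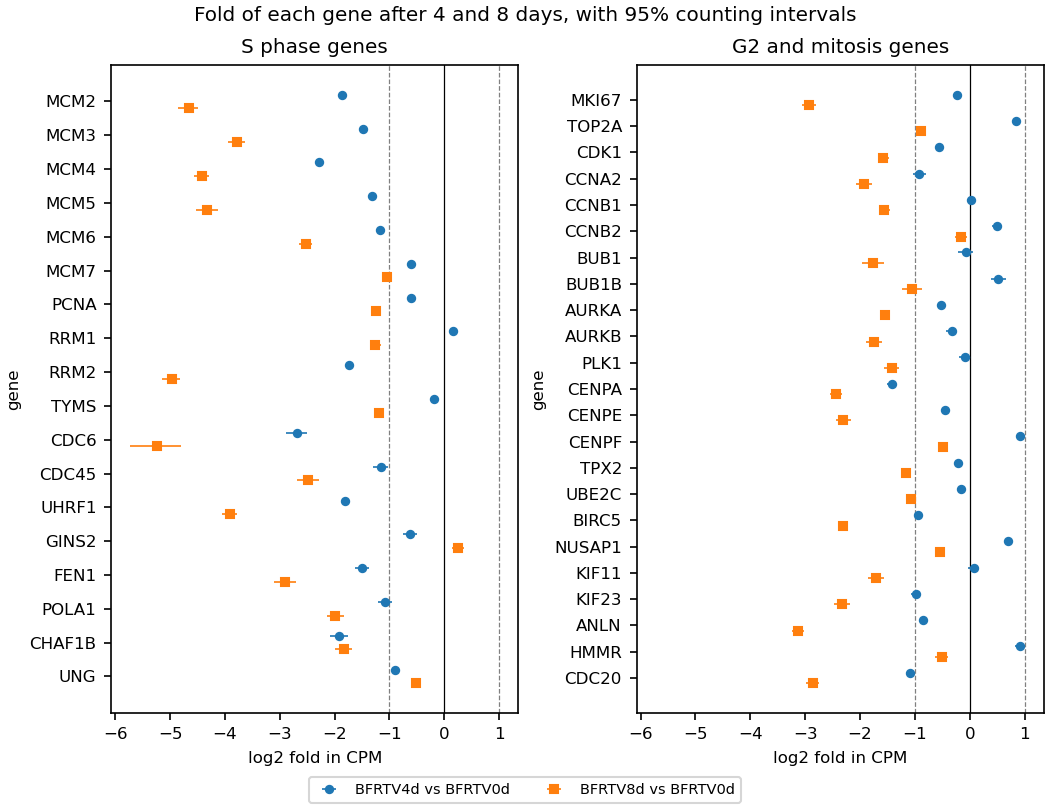
Log2 fold in CPM of each gene in BFRTV4d (circles) and BFRTV8d (squares) against BFRTV0d, with 95% counting intervals as bars and dashed lines at 2-fold. The circles of 12 of 18 S phase genes lie beyond the 2-fold line on the left, against 2 of 23 G2 and mitosis genes.

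The totals do not say how many cells held these RNAs, so each cell was thinned to 3000 UMIs and cells with at least 2 UMIs of a group of genes were counted. S phase genes reached this in 64.3% of BFRTV0d cells (63.4 to 65.2), 26.5% of BFRTV4d cells (25.6 to 27.3) and 14.8% of BFRTV8d cells (14.1 to 15.5). G2 and mitosis genes reached it in 37.4% of BFRTV0d cells (36.4 to 38.3), 24.5% of BFRTV4d cells (23.7 to 25.4) and 8.03% of BFRTV8d cells (7.51 to 8.58). Both shares were lower on each later day, and on day 4 the S phase share was the further below day 0. Without thinning the shares were 91.8%, 55.1% and 56.3% for S phase genes and 68.9%, 44.0% and 22.7% for mitotic genes in the same order, so that BFRTV8d then stood above BFRTV4d for S phase genes. Cells with neither group made up 27.6% of BFRTV0d, 64.7% of BFRTV4d and 80.0% of BFRTV8d, and cells with both 29.3%, 15.7% and 2.83%.

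**Figure D3:**
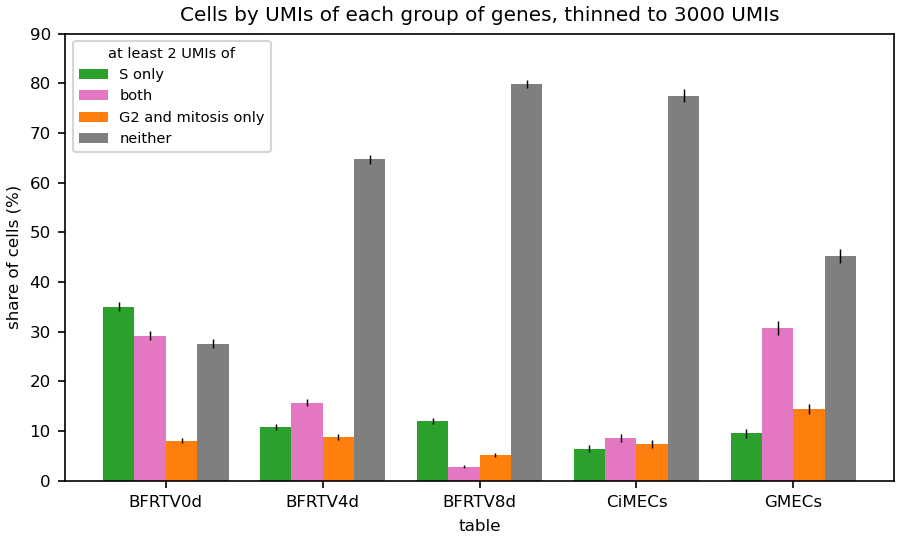
Share of cells (%) with at least 2 UMIs of S phase genes only, of both groups of genes, of G2 and mitosis genes only, or of neither, in each table after thinning to 3000 UMIs, with exact 95% intervals. The share with neither is 27.6% in BFRTV0d and 80.0% in BFRTV8d, and the share with both is 30.7% in GMECs.

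The mitotic RNAs were held by fewer cells on the later days. The 10% of cells with the most mitotic UMIs held 50.8% of them in BFRTV0d, 63.9% in BFRTV4d and 82.0% in BFRTV8d, whereas for S phase genes this was 27.3%, 46.7% and 39.7%. The mean correlation over cells between pairs of mitotic genes was 0.14 in BFRTV0d, 0.19 in BFRTV4d and 0.22 in BFRTV8d, and between pairs of S phase genes 0.03, 0.07 and 0.02. Cells of a group come from 1 pooled table and were thinned to the same depth, and these correlations are descriptions. These correlations pool cells of different kinds, and values within each kind are given below.

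The BFRTV tables mix cells of different kinds, and the members were therefore compared within each. Cells with more UMIs of 10 collagen and matrix markers than of 11 keratin and junction markers, and at least 2, were called collagen-positive, and the reverse keratin-positive. Keratin-positive cells made up 6.89% of BFRTV0d (735 cells), 52.6% of BFRTV4d (5364 cells) and 96.4% of BFRTV8d (9787 cells). No member was used to make this division. In BFRTV4d the keratin-positive cells held 85.8% of the S phase UMIs and 88.4% of the G2 and mitosis UMIs, with 53.8% of all UMIs. The mean correlation between pairs of mitotic genes within collagen-positive cells was 0.13 in BFRTV0d, 0.11 in BFRTV4d and 0.014 in BFRTV8d. Within keratin-positive cells it was 0.17, 0.17 and 0.22 on the same days. The higher mitotic value over all cells on day 4 than on day 0 was not found at that size within either kind. For S phase genes the mean correlation was 0.034, 0.015 and 0.0017 in collagen-positive and 0.036, 0.061 and 0.017 in keratin-positive cells.

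On day 4 the cell cycle RNAs were low in the collagen-positive cells and near the day 0 level in the keratin-positive cells. In collagen-positive cells the S phase genes summed to 129 CPM in BFRTV4d against 917 CPM in BFRTV0d, and the mitotic genes to 190 CPM against 783 CPM. In keratin-positive cells the S phase genes summed to 676 CPM in BFRTV4d against 642 CPM in BFRTV0d, and the mitotic genes to 1250 CPM against 1201 CPM. Cells with at least 2 S phase UMIs at fixed depth made up 6.21% of the collagen-positive cells in BFRTV4d (5.54 to 6.93) against 65.5% in BFRTV0d (64.5 to 66.4). Among keratin-positive cells this share was 44.7% in BFRTV4d (43.4 to 46.1) against 48.2% in BFRTV0d (44.5 to 51.8). For mitotic genes it was 6.94% in collagen-positive cells of BFRTV4d against 36.7% in those of BFRTV0d, and 40.4% in keratin-positive cells of BFRTV4d against 46.8% in those of BFRTV0d.

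Gene by gene, all 18 S phase genes and 21 of 23 mitotic genes were at least 2-fold lower in the collagen-positive cells of BFRTV4d than in those of BFRTV0d, where 35.1% of all genes were, with median log2 folds of -2.98 and -2.28 against -0.60 for all genes. The exceptions were TOP2A, with 23.2 CPM in BFRTV4d against 40.5 CPM in BFRTV0d, and HMMR, with 8.15 CPM against 13.2 CPM. In the keratin-positive cells 1 of 18 S phase genes, CDC6, and 0 of 23 mitotic genes were at least 2-fold lower, where 11.3% of all genes were, and the medians were 0.042 and -0.14. There 5 mitotic genes, TOP2A, BUB1B, CENPF, NUSAP1 and HMMR, were at least 2-fold higher, where 15.2% of all genes were. MCM2 shows the contrast: in collagen-positive cells it measured 3.19 CPM in BFRTV4d against 67.6 CPM in BFRTV0d, and in keratin-positive cells 29.3 CPM in BFRTV4d against 29.1 CPM in BFRTV0d.

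**Figure D4:**
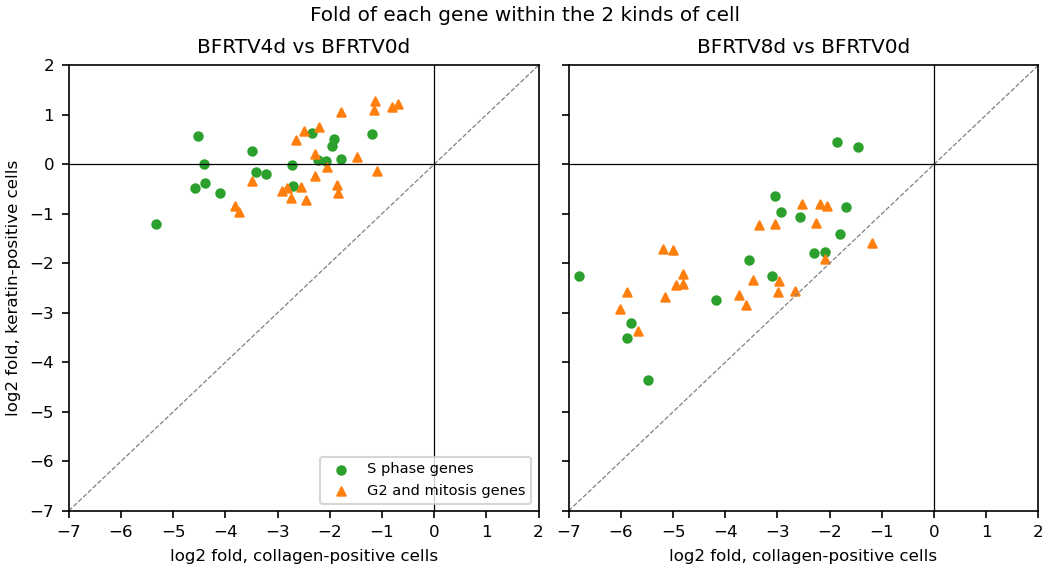
Log2 fold in CPM of each gene within collagen-positive cells (horizontal) and keratin-positive cells (vertical), for BFRTV4d against BFRTV0d (left) and BFRTV8d against BFRTV0d (right), with S phase genes as circles, G2 and mitosis genes as triangles and equal folds on the dashed line. On the left the points lie left of 0 and spread around 0 vertically (medians -2.98 and 0.042 for S phase genes), and on the right most lie below 0 as well. RRM2 and CDC6, at 0 UMIs in the 362 collagen-positive cells of BFRTV8d, are not drawn on the right.

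On day 8 these RNAs were lower in the keratin-positive cells themselves. There the S phase genes summed to 234 CPM and the mitotic genes to 304 CPM in BFRTV8d. Relative to BFRTV4d, 14 of 18 S phase genes and all 23 mitotic genes were at least 2-fold lower in these cells, where 6.96% of all genes were, with medians of -1.97 and -2.07. The S phase exceptions were MCM7, GINS2, CHAF1B and UNG. Relative to BFRTV0d, 13 of 18 and 20 of 23 were at least 2-fold lower, where 16.8% of all genes were. MKI67 in keratin-positive cells measured 45.3 CPM in BFRTV0d, 63.3 CPM in BFRTV4d and 6.01 CPM in BFRTV8d, and RRM2 measured 68.4, 49.3 and 3.15 CPM on the same days.

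The kinds of cell differed in level and in share, and the part of their shares in the totals was not tested. Had each kind of cell kept its BFRTV0d level, BFRTV4d would have summed to 769 CPM of S phase genes and 1008 CPM of mitotic genes, against measured totals in these cells of 423 CPM and 761 CPM. The measured totals were 1.82-fold and 1.33-fold below these, and in BFRTV8d 2.85-fold and 4.02-fold below. This calculation was chosen after seeing the data and is a description. Its level for keratin-positive cells comes from the 735 such cells of BFRTV0d. The keratin-positive cells of BFRTV0d had a median of 16529 UMIs against 9905 in its collagen-positive cells, no doublet caller was run, and the part of doublets in this small group was not tested.

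Not every S phase gene marked the same cells as the others. To see this, each gene was looked for among cells with no UMI of the other 40 genes, since no cell type that should lack these genes was at hand. Such cells were picked after thinning and can include cycling cells whose UMIs were lost in it. The share among them therefore mixes such cells with free RNA and expression outside the cycle, and these were not told apart. MKI67 had a UMI in 9.93% of all BFRTV0d cells and in 1.80% of those without the other genes, and in 7.91% and 0.838% in BFRTV4d and 1.07% and 0.161% in BFRTV8d. UNG had a UMI in 23.0% of all BFRTV0d cells and 15.7% of those without the others, and in BFRTV8d in 17.2% (16.5 to 17.9) and 17.4% (16.4 to 18.5), which differ by less than their counting intervals. MCM7 in BFRTV8d had 7.10% and 6.55%, PCNA 8.16% and 6.59%, TYMS 11.8% and 9.32%, and GINS2 3.74% and 3.23%. In BFRTV8d the first share was less than 1.5 times the other for 13 of 18 S phase genes and 0 of 23 mitotic genes, whereas in BFRTV0d this held for UNG alone and in BFRTV4d for 0 of 41. Shares this near those of cells without the others were not read as cells in S phase, nor as cells outside it. For S phase genes, the cells without the others numbered 1047 to 1232 of 10670 in BFRTV0d. In BFRTV4d they numbered 3667 to 4025 of 10158, and in BFRTV8d 4354 to 5269 of 10144. They are part of all cells, and a larger part draws the 2 shares together. The numbers of genes below 1.5 times can therefore not be compared between days. With UNG left out, chosen after seeing the data, cells with at least 2 S phase UMIs made up 59.7% of BFRTV0d, 23.6% of BFRTV4d and 9.38% of BFRTV8d.

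**Figure D5:**
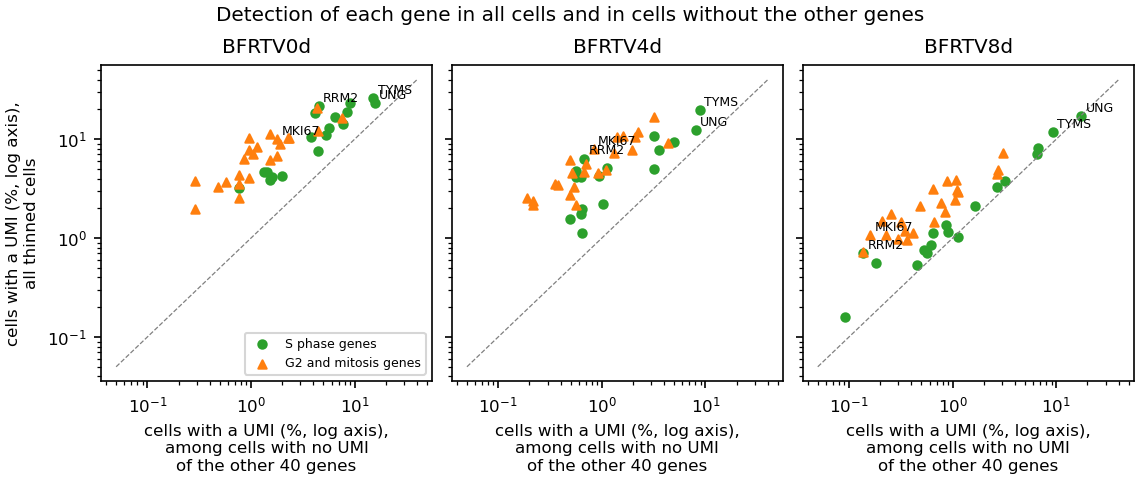
Share of cells with a UMI of each gene among cells with no UMI of the other 40 genes (horizontal, log axis, %) and among all thinned cells (vertical, log axis, %), in BFRTV0d, BFRTV4d and BFRTV8d, with S phase genes as circles, G2 and mitosis genes as triangles and equal shares on the dashed line. In BFRTV8d UNG lies on the line at 17.4% and 17.2%, and most S phase genes lie near it, while MKI67 stays above it.

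GMECs, the natural mammary cells, carried the most mitotic RNA of the 5 tables, with 1204 CPM summed over the mitotic genes and 541 CPM over the S phase genes. There 17 of the 23 mitotic genes were highest, and the share of all genes highest there was not counted. With ribosomal protein genes in the totals BFRTV0d was the highest, with 783 CPM in GMECs against 833 CPM in BFRTV0d. The BFRTV tables list no ribosomal protein genes, so that setting lowers CiMECs and GMECs alone and compares unlike totals. Without these genes CiMECs had 371 CPM of mitotic and 238 CPM of S phase genes. In CiMECs against GMECs, 15 of 18 S phase genes and 22 of 23 mitotic genes were at least 2-fold lower and 0 higher, while 25.6% of all genes were lower and 6.58% higher by that much. The medians were -1.89 and -1.85 against -0.51 for all genes. The exceptions were PCNA, TYMS, UNG and TPX2, and MKI67 had the largest difference, 9.29-fold lower (8.42 to 10.3). With TMM scaling the median over all genes was higher by 0.50, and fewer members pass 2-fold lower. The mitotic totals were then 577 scaled CPM in CiMECs against 1319 in GMECs, and the S phase totals 369 against 593. Cells with at least 2 mitotic UMIs made up 16.0% of CiMECs (14.9 to 17.2) against 45.2% of GMECs (43.7 to 46.6), and for S phase genes 15.0% (14.0 to 16.1) against 40.3% (38.9 to 41.7). Thinning left out 938 CiMECs and 961 GMECs barcodes, and without it the mitotic shares were 38.1% in CiMECs against 65.7% in GMECs, and the S phase shares 47.9% against 71.3%. Keratin-positive cells made up 99.8% of CiMECs and all of GMECs. Each group is 1 pooled table, and culture history cannot be told apart from the group.

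In GMECs against BFRTV0d, 7 of 18 S phase genes were at least 2-fold lower and 0 higher, and 3 of 23 mitotic genes (CCNB2, PLK1 and UBE2C) were at least 2-fold higher and 0 lower. Among all genes 29.4% were lower and 12% higher, so that the 7 lower S phase genes and the 3 higher mitotic genes lay near the shares among all genes. The medians were -0.77 and 0.46 against -0.47 for all genes. With TMM scaling 7 and with median-of-ratios scaling 10 mitotic genes passed 2-fold higher, and with the total of all genes, ribosomal protein genes included, 0 did. That last total holds ribosomal protein genes in GMECs only, so it compares unlike totals.

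In CiMECs against BFRTV8d, MCM2, MCM5, PCNA, RRM2 and CDC6 were at least 2-fold higher and MCM7, GINS2, CHAF1B and UNG at least 2-fold lower, and of the mitotic genes CCNB1, CENPE, UBE2C, ANLN and CDC20 were higher and 0 lower. Among all genes 42.1% were at least 2-fold lower and 9.12% higher. The medians were 0.35 for S phase genes and 0.31 for mitotic genes against -0.76 for all genes. This comparison turned on the scaling: higher and lower S phase genes numbered 10 and 1 with TMM and 3 and 5 with the total of all genes, and mitotic genes 12 and 0 with TMM and 1 and 6 with the total of all genes. The total of all genes holds ribosomal protein genes in CiMECs only, so it compares unlike totals.

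Other genes of the same processes were read from lists written for this purpose, with members of at least 5 CPM on average. Of 45 other replication genes, 25 were at least 2-fold lower in BFRTV4d than in BFRTV0d and 1 higher, and of 53 other G2 and mitosis genes 6 were lower and 1 higher. In BFRTV8d against BFRTV0d these were 32 lower and 1 higher, and 40 lower and 1 higher. Among all genes 22.5% were lower and 14.9% higher in BFRTV4d, and 26.1% were lower and 19.3% higher in BFRTV8d, so that on day 4 the lower mitotic genes were below the share among all genes. CCNE2, a cyclin of S phase entry, measured 43.8 CPM in BFRTV0d, 4.41 CPM in BFRTV4d and 0.368 CPM in BFRTV8d. INCENP, the scaffold of the chromosomal passenger complex, was the mitotic gene that was higher on day 4, with 13.0 CPM in BFRTV4d against 4.63 CPM in BFRTV0d. CENPW, a centromere protein, measured 17.2 CPM in BFRTV8d against 296 CPM in BFRTV0d. In CiMECs against GMECs 28 replication and 46 mitotic genes of these lists were lower and 0 higher, where 25.6% of all genes were lower.

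Of 23 regulators of the cycle, 12 were at least 2-fold lower in BFRTV4d than in BFRTV0d and 3 higher, and 14 were lower and 4 higher in BFRTV8d. The higher ones were TFDP2, RB1 and RBL2 on both days, and E2F5 in BFRTV8d. RB1 measured 9.10 CPM in BFRTV0d, 22.3 CPM in BFRTV4d and 24.0 CPM in BFRTV8d, and TFDP2 25.7, 65.5 and 69.9 CPM. The numbers of higher regulators lay near the 14.9% of all genes that were higher in BFRTV4d and the 19.3% in BFRTV8d, and the numbers of lower ones above the 22.5% and 26.1% that were lower. E2F1, the activator of S phase genes, measured 20.0 CPM in BFRTV0d, 2.69 CPM in BFRTV4d and 0.281 CPM in BFRTV8d. MYBL2, which acts on mitotic genes with the MuvB complex, measured 87.7 CPM in BFRTV0d, 38.3 CPM in BFRTV4d and 5.24 CPM in BFRTV8d. FOXM1 was barely found, with 0.281 CPM in BFRTV0d and 0.208 CPM in GMECs, and was not listed in BFRTV4d, BFRTV8d or CiMECs. CDK4, a kinase of G1, measured 72.0 CPM in BFRTV4d against 267 CPM in BFRTV0d. CCND2, a D-type cyclin, measured 166 CPM in BFRTV0d, 234 CPM in BFRTV4d and 253 CPM in BFRTV8d, with 399 CPM in CiMECs against 20.6 CPM in GMECs. GMECs stood apart from the other tables, and CCND2 was 8.04-fold lower there than in BFRTV0d (7.63 to 8.48).

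Genes outside the 41 were ranked by the correlation of their UMIs with the summed mitotic genes over thinned cells. CKS2, a small CDK-binding protein, was among the first 10 in all 5 tables, with a correlation of 0.52 in BFRTV0d, 0.57 in BFRTV4d and 0.48 in BFRTV8d, 0.51 in CiMECs and 0.59 in GMECs. UBE2S, which extends ubiquitin chains for the anaphase-promoting complex, led in BFRTV4d (0.60) and GMECs (0.60). With the summed S phase genes the first were PTMA in BFRTV0d (0.30), BFRTV4d (0.54) and GMECs (0.49), and KIAA0101, a PCNA-binding protein, in BFRTV8d (0.19) and CiMECs (0.35). KRT5 (0.44) and KRT8 (0.43), keratins of basal and simple epithelium, were among the first 10 for S phase genes in BFRTV4d. That table pools the 2 kinds of cell, with at least 2 S phase UMIs in 44.7% of keratin-positive and 6.21% of collagen-positive cells. The part of this mixture in these correlations was not tested.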

How the data were processed

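RNA of single cells from 5 goat cell groups was captured by the authors in droplets (10x Genomics, 3′ chemistry, kit version 2). For each group the authors deposited 1 table of raw UMI counts, with genes in rows and cells in columns and no normalization. FastQC 0.10.1 and Cell Ranger are named in the submitters' processing notes, and for the assembly and gene models used in counting the entry is: not given in the sources used here. No coordinates or sequences are printed. The BFRTV tables list genes found in at least 11 cells and the other tables in at least 6.

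The members and lists were chosen with earlier results of these data known. Full values are given for the genes with the largest and smallest change from BFRTV0d to BFRTV8d in each role, and for MKI67, TOP2A, PCNA and CDK1. MCM2, RRM1 and TYMS were added after their values were seen, as was any other gene singled out. Counts were summed per table and scaled to CPM without 74 ribosomal protein genes. A fold is a ratio of CPM with an exact conditional binomial interval, levels have exact Poisson intervals, and shares have exact Clopper-Pearson intervals, all at 95%. Genes with a mean of at least 5 CPM over the 5 tables served as all genes, and each member was counted whatever its level. In the folds that were counted, a listed count of 0 was set at 3 UMIs. A gene not listed was set at 11 UMIs in BFRTV tables and at 6 UMIs in the CiMECs and GMECs tables. Shares were taken after thinning each cell to 3000 UMIs, without shallower cells. All barcodes were kept otherwise and doublets were not removed. Folds and counts were tested on simulated data. Alternatives were TMM (edgeR 4.0.16) and median-of-ratios factors, the total of all genes, barcodes of at least 3000 UMIs, no minimum level, thinning to 2000 UMIs or none, at least 3 UMIs, another seed and a stricter division of cells. Python 3.11.15, numpy 2.4.6, scipy and pandas were used.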

Additional observations from a re-analysis of the deposited data

Results flagged for a closer look

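BUB1B, CENPF and NUSAP1 moved at least 2-fold in opposite directions in the 2 kinds of cell when BFRTV4d was set against BFRTV0d, and this difference was not tested because each group is 1 pooled table. In collagen-positive cells the ratio of BFRTV4d over BFRTV0d was 0.290 for BUB1B, 0.457 for CENPF and 0.450 for NUSAP1. In keratin-positive cells it was 2.07 for BUB1B, 2.43 for CENPF and 2.13 for NUSAP1, with only 735 such cells in BFRTV0d. Of all genes, 35.1% were at least 2-fold lower in collagen-positive cells and 15.2% at least 2-fold higher in keratin-positive cells. The share of all genes that did both was not counted, so these genes are not shown to stand out from it.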

How the results depend on the processing

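Direction and size relative to all genes held for the median folds under 56 of 60 alternatives. Most of these could not differ, because TMM, median-of-ratios and total-of-all-genes scaling move every gene alike and cancel in a median relative to all genes. The count is therefore no measure of how the medians depend on scaling. With no minimum level the S phase and mitotic medians relative to all genes were -1.11 and -0.085 in BFRTV4d against BFRTV0d, the mitotic one having changed sign, and -2.41 and -1.48 in BFRTV8d against BFRTV0d, where all genes then include many of low level. Counts of members past 2-fold stayed within 1.5 times under 124 of 144 alternatives. Many of these could not differ either, because a minimum level for all genes does not change a count of members. Between BFRTV tables, which list no ribosomal protein genes, the total of all genes is the main total. The 124 are therefore no measure of how the counts depend on the processing. In BFRTV4d against BFRTV0d, TMM and median-of-ratios scaling gave 1 mitotic gene lower and 3 higher. In CiMECs against BFRTV8d, S phase genes numbered 1 lower and 10 higher with TMM, 1 lower and 11 higher with median-of-ratios and 3 higher with the total of all genes, and mitotic genes 12 higher, 13 higher, and 6 lower with 1 higher in the same order. In GMECs against BFRTV0d, 7 mitotic genes were higher with TMM, 10 mitotic and 1 S phase gene with median-of-ratios, and with the total of all genes 11 S phase genes and 1 mitotic gene were lower and 0 mitotic genes higher. In both comparisons the total of all genes holds ribosomal protein genes on the CiMECs or GMECs side only. TMM shifted the median of all genes by 0.21 (BFRTV4d against BFRTV0d), 0.14 (BFRTV8d against BFRTV0d), 0.74 (CiMECs against BFRTV8d), 0.37 (GMECs against BFRTV0d) and 0.50 (CiMECs against GMECs).

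Shares of cells depend on depth and on the number of UMIs asked for, by their construction. In the order BFRTV0d, BFRTV4d, BFRTV8d, CiMECs and GMECs, the S phase shares were 48.0%, 18.5%, 8.20%, 8.92% and 29.2% at 2000 UMIs, 91.8%, 55.1%, 56.3%, 47.9% and 71.3% without thinning, and 45.1%, 16.0%, 4.16%, 7.36% and 25.7% with at least 3 UMIs. The mitotic shares were 28.5%, 20.8%, 6.38%, 12.6% and 39.0% at 2000 UMIs, 68.9%, 44.0%, 22.7%, 38.1% and 65.7% without thinning, and 25.6%, 19.3%, 5.26%, 11.7% and 37.4% with at least 3 UMIs. Without UNG the S phase shares were 59.7%, 23.6%, 9.38% and 38.7% in BFRTV0d, BFRTV4d, BFRTV8d and GMECs. Asking for 3 times as many UMIs of one marker list as of the other gave collagen-positive shares of 92.5%, 44.5% and 2.96%, keratin-positive shares of 6.34%, 48.5% and 95.7%, and 1.12%, 6.99% and 1.31% in neither, in BFRTV0d, BFRTV4d and BFRTV8d. With that division, added after seeing the data, the counts of members past 2-fold within each kind of cell stayed within 1.5 times, except that 1 S phase gene against 0 was higher in collagen-positive cells of BFRTV8d than in those of BFRTV4d.

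Each group is 1 pooled table, so leaving out a replicate was not possible and the spread between cultures is unknown. No paired analysis was possible because the tables carry no replicate numbers. CDC6 had 0.387 CPM in BFRTV8d, where depth limits its fold. Whether reads of gene copies were split was not tested.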
